A study of Mus musculus with 6 samples.

Results

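The genes described here make cholesterol and fatty acids. They are 31 genes chosen by symbol, namely the enzymes from acetyl-CoA to cholesterol, the enzymes that build, elongate and desaturate fatty acids, and the sterol-sensing regulators of both. Of these, 30 had a probe set annotated to 1 symbol and were measured, out of 19938 genes on the array, and Acat2 was not analysed here. Where a gene had several such probe sets, as 3 of the 30 did, the one with the highest mean signal over the arrays stands for it.

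RNA came from CTIP2:GFP+ and CTIP2:GFP- cells that were sorted on day 11, day 12 and day 13 of cortical differentiation of mouse embryonic stem cells, with 1 GeneChip Mouse Gene ST array for each fraction and day, 6 in all. Both fractions came from 1 knock-in line of 129SVEV origin, in which GFP and a neomycin cassette follow the coding sequence of Ctip2 (Bcl11b), a transcription factor of deep-layer cortical neurons, so every array carries that allele. All cells were grown as floating aggregates by the SFEBq method, received the WNT inhibitor WNT-C59 and the TGF-β receptor inhibitor SB-431542 early in the culture, and were then kept in serum-free medium with N2 and B-27 supplements. The labels give no second culture for any day, so day, culture and sort cannot be told apart, and a p-value measures the spread between these arrays only.

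Cholesterol is built from acetyl-CoA through mevalonate, isoprenoid diphosphates, squalene and lanosterol, and fatty acids are built from the same acetyl-CoA through malonyl-CoA. When sterols in the endoplasmic reticulum are low, the escort protein SCAP carries the SREBP transcription factors to the Golgi, where they are cut and released to bind sterol response elements in the promoters of these enzymes. INSIG1 holds SCAP back when sterols are high. Neural cells make most of their own cholesterol, and growing axons and dividing cells both need new membrane.

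Values are log2 RMA signals as deposited, which run from 4.15 to 13.1. Bcl11b, the gene that carries the GFP, served as the check of the sort. Its signals on day 11, day 12 and day 13 were 8.76, 7.91 and 8.54 in GFP+ cells, against 6.44, 6.27 and 6.88 in GFP- cells. GFP+ cells were higher on every day. Of 8 radial glia markers, 5 were lower in GFP+ cells by limma with a term for the day and 0 were higher, with a median difference of -1.24, and of 8 neuron markers, 2 were higher and 0 lower, with a median difference of 1.16. The median signal of 5 pluripotency markers lay between 4.57 and 4.94 on the 6 arrays, near the 4.67 below which 20% of probe set means lie. The day 13 GFP- array stood apart, with signals spread less widely (SD 1.11) than on the other 5 arrays (SD 1.29 to 1.48), and values without it are given where they differ by over 1.5 times for a gene whose 6 signals are listed. Because the RNA is from bulk sorted cells, fewer cells of a type and less RNA per cell cannot be told apart.

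The synthesis genes were well expressed. Their mean signals over the 6 arrays ran from 5.31 for Ebp to 10.5 for Scd2, with a median of 7.60, and 1 of the 30 lay below the median of all probe sets, which was 5.43. Signals of different probe sets depend on the probes, so the genes are not ranked by level. On day 11, day 12 and day 13, the median signal of the 30 genes was 7.34, 8.06 and 7.38 in GFP+ cells and 7.47, 8.25 and 7.07 in GFP- cells. Day 12 held the highest of the 3 medians in both fractions.

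**Figure D1:**
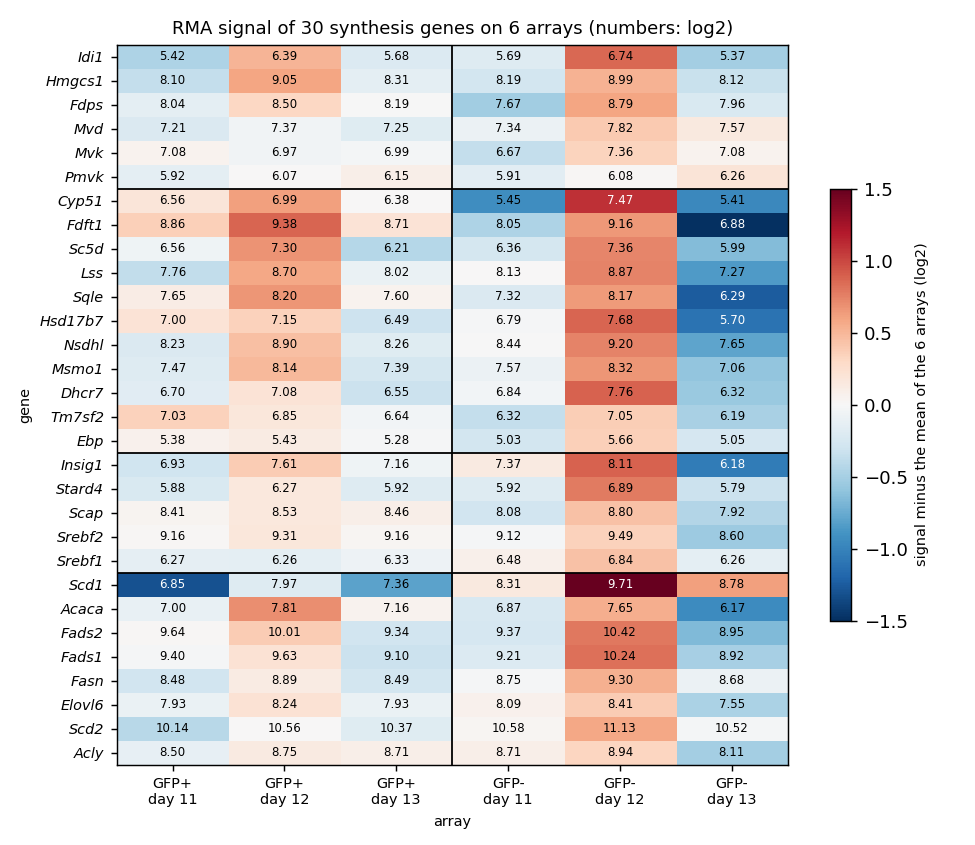
Heat map of the deposited log2 RMA signals of the 30 synthesis genes (rows, grouped by role and ordered by the day 12 difference) on the 6 arrays (columns, GFP+ left and GFP- right). Each cell prints the signal, and the colour gives the signal minus the mean of the gene's 6 arrays. The day 12 columns are red for most genes in both fractions, and the day 13 GFP- column is the bluest, holding the lowest of the 6 values for 20 genes.

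The promoters of the group are shown because the regulators among its members act through them. RefSeq promoter windows (GRCm38.p6, 250 bases before to 50 after a gene's start) were found for 23 of the 30 measured members. The windows of a gene were searched on both strands for TCACNCCAC, the core of a sterol response element, for CCAAT, the box bound by NF-Y, and for GGGCGG, the box bound by SP1, and matches of different motifs overlapped in 0 of the 23 genes. TCACNCCAC was found for 1 of 23 members (Hmgcs1), against 1.40% of the 15614 measured genes with a window and 1.44% of all 27025 genes. CCAAT was found for 19 of 23 members, or 82.6%, against 41.7% of the measured genes and 41.1% of all genes. GGGCGG was found for 19 of 23 members, also 82.6%, against 52.9% of the measured genes and 38.2% of all genes. These are exact matches of letters, and binding was not measured. A site that departs from the searched letters is not counted, so a window without a match may still hold a sterol response element.

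The bases before the start are printed for 5 members. They are Hmgcs1 (chr13:119690101-119690350, plus strand), which holds the sterol motif, Cyp51 (chr5:4104698-4104947, minus strand), Sc5d (chr9:42264301-42264550, minus strand) and Idi1 (chr13:8885356-8885605, plus strand), which have the largest day 12 differences among members with 1 window, and Pmvk (chr3:89454291-89454540, plus strand), which has the smallest and of whose 2 windows the one at the gene's outer start is given. Each runs 5′ to 3′ along its gene, and capitals mark TCACNCCAC and CCAAT in either orientation, so that ATTGG is a CCAAT box on the opposite strand.
Hmgcs1: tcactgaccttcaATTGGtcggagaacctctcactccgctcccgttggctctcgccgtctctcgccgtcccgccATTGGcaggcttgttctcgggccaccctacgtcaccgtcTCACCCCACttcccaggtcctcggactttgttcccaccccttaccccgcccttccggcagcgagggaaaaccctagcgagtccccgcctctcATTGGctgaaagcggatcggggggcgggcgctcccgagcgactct
Cyp51: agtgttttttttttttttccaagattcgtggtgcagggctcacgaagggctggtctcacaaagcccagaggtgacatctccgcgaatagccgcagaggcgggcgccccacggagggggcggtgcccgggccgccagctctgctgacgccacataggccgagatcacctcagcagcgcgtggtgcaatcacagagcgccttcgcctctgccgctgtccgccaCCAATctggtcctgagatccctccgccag
Sc5d: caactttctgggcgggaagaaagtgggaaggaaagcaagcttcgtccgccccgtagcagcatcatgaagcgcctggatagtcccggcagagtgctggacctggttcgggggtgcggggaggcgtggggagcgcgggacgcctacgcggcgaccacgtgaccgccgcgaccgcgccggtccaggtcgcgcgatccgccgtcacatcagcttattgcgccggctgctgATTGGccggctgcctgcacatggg
Idi1: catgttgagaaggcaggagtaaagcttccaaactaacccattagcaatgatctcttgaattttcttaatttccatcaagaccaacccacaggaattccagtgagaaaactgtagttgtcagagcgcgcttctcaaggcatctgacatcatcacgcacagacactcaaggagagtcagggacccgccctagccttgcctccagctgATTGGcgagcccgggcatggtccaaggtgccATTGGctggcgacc
Pmvk: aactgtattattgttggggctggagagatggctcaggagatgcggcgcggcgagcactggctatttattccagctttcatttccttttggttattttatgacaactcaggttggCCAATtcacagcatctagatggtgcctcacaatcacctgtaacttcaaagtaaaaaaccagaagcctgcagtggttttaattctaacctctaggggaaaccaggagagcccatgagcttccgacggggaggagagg
Hmgcs1 holds 3 CCAAT boxes and its sterol motif begins at base -137, counted back from the start. Cyp51, Sc5d and Pmvk hold 1 CCAAT box each and Idi1 holds 2.

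The first comparison asks whether GFP+ cells, sorted for the CTIP2 reporter, differ from GFP- cells in these genes. The group showed no shared direction. The median GFP+ minus GFP- difference over the 30 genes was 0.05, against -0.05 over all genes, with 19 genes above 0 and 11 below. Above 0 were 8175 of all genes, and 6749 of the 11606 genes with a mean signal in the range of the 30. The median was 0.08 over genes in that range, 0.28 for a mean signal of 7 to 8 and 0.40 for 8 to 9. The limma fit, which had a term for the day and p-values adjusted after Benjamini-Hochberg over 19938 genes, called 0 of the 30 higher in GFP+ cells and 1 lower, where 0.797% of all genes were called higher and 0.567% lower. At an unadjusted p under 0.05, 1 was higher (9.58% of all genes, 16.1% in the signal range) and 2 were lower (5.96% of all genes, 8.85% in the signal range). Over 2-fold, 0 were higher (1.97% of all genes) and 1 was lower (1.02% of all genes).

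That 1 gene was Scd1, the stearoyl-CoA desaturase that makes monounsaturated fatty acids. Its signals on day 11, day 12 and day 13 were 6.85, 7.97 and 7.36 in GFP+ cells, against 8.31, 9.71 and 8.78 in GFP- cells. The fractions did not overlap, and GFP+ cells were lower on all 3 days, by 1.46, 1.74 and 1.42. The mean was 7.39 ± 0.56 in GFP+ cells and 8.93 ± 0.71 in GFP- cells (SD, n = 3 each), a difference of -1.54 (SE 0.145), or 2.91-fold lower, with an adjusted p of 0.0243 by limma, and 40 of the 19938 genes had a lower difference. The call was lost without the day 13 GFP- array (difference -1.60, adjusted p = 0.0525 by limma), with median centring (adjusted p = 0.105) and with the day ignored (adjusted p = 0.175), while GFP+ cells stayed lower. All 8 radial glia markers were lower in GFP+ cells as well, 5 of them past the adjusted limma test. Their part in the difference of Scd1 was not tested. On the arrays of day 11, day 12 and day 13, the median signal of those 8 markers was 6.80, 7.52 and 7.13 in GFP+ cells, against 8.46, 9.19 and 9.004 in GFP- cells.

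The other desaturases had smaller differences. Scd2, the desaturase isoform best known from brain, had 10.14, 10.56 and 10.37 in GFP+ cells, against 10.58, 11.13 and 10.52 in GFP- cells. It was lower in GFP+ cells on each day, yet the fractions overlapped, and its mean difference of -0.39 (SE 0.151) did not pass (adjusted p = 0.297, limma). Fads1 and Fads2, which desaturate polyunsaturated fatty acids, differed by -0.08 and 0.08. Whether the probes of Scd1 and Scd2 also bind the transcripts of related desaturase genes was not tested.

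The next largest differences were positive, and they were small or negative on day 12. Fdft1, squalene synthase, had 8.86, 9.38 and 8.71 in GFP+ cells, against 8.05, 9.16 and 6.88 in GFP- cells. Its difference was 0.95 (SE 0.307), with daily values of 0.81, 0.22 and 1.84, and it was 0.51 without the day 13 GFP- array. Sqle, squalene epoxidase, had 7.65, 8.20 and 7.60 in GFP+ cells, against 7.32, 8.17 and 6.29 in GFP- cells, a difference of 0.55 (SE 0.263). The daily values were 0.33, 0.03 and 1.31, and without that array the difference was 0.18. Cyp51, the lanosterol demethylase, had 6.56, 6.99 and 6.38 in GFP+ cells, against 5.45, 7.47 and 5.41 in GFP- cells. It was higher in GFP+ cells on day 11 and day 13, by 1.11 and 0.97, and lower on day 12, by 0.49, and its mean difference of 0.53 (SE 0.328) became 0.31 without the array. Acaca, the acetyl-CoA carboxylase that makes malonyl-CoA, had 6.999, 7.81 and 7.16 in GFP+ cells, against 6.87, 7.65 and 6.17 in GFP- cells, a difference of 0.43 (SE 0.212) that became 0.15 without the array. None of these 4 passed, with adjusted p by limma between 0.217 for Fdft1 and 0.531 for Cyp51. Without day 12, Fdft1 (1.32) and Cyp51 (1.04) passed the adjusted test.

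The sign of the difference varied with the day, and the shares of all genes by sign on each day were not counted. GFP+ cells were lower than GFP- cells for 15 of 30 genes on day 11, 26 on day 12 and 6 on day 13, and the median difference on those days was -0.01, -0.29 and 0.32. Over all genes the daily medians were -0.010, -0.005 and -0.071. Brighter genes also had their lowest median on day 12 and their highest on day 13. The daily medians were 0.09, -0.07 and 0.27 over genes in the signal range of the 30. With a mean signal of 7 to 8 they were 0.22, -0.09 and 0.74, and with 8 to 9 they were 0.28, 0.007 and 0.90. A sign shared by all 3 days was seen for 7 genes, 3 positive and 4 negative, and the other 23 took both signs. The values of day 13 include the array that stood apart, and without it the median over the 30 genes was -0.15. Under the alternatives tried, the sign of the difference turned at least once for 18 of the 30 genes and was kept for 12.

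**Figure D2:**
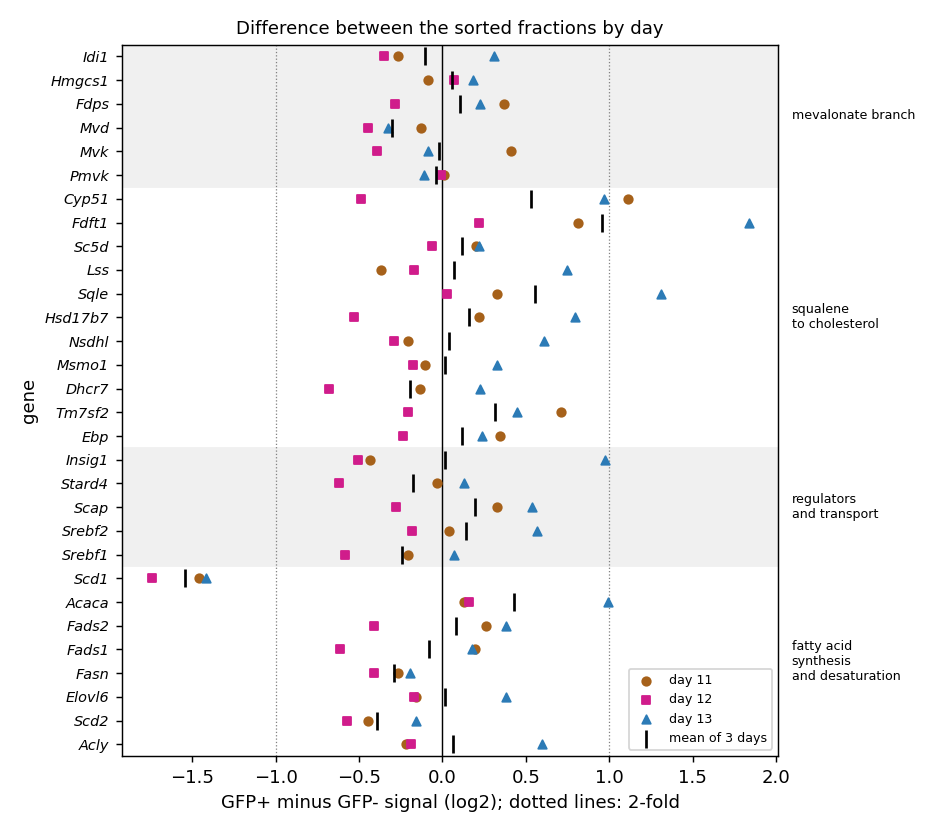
GFP+ minus GFP- signal (log2, horizontal axis) of each synthesis gene on day 11 (circles), day 12 (squares) and day 13 (triangles), with the mean of the 3 days as a bar. Scd1 lies left of -1 on all 3 days, and for most other genes the day 12 square lies left of 0 while the day 13 triangle lies right of it.

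The second comparison sets day 12 against day 11 and day 13. All 30 genes had a higher mean on day 12, with differences from 0.02 for Pmvk to 1.28 for Cyp51 and a median of 0.80, against -0.05 over all genes. Higher on day 12 were 9148 of all 19938 genes, 2104 of 2333 with a mean signal of 7 to 8 and 824 of 902 with 8 to 9. None passed the adjusted test: limma called 0 of the 30, as it called 0% of all genes, with a smallest adjusted p of 0.366. At an unadjusted p under 0.05, 21 of the 30 were higher and 0 lower, where 10.7% of all genes were higher. So were 2096 of the 11606 genes in the signal range of the 30, and 554 of 2333 with a mean signal of 7 to 8. Day 12 was over 2-fold higher for 5 of the 30, against 0.893% of all genes. A trended and robust version of the test called 2 genes, Cyp51 and Idi1, and a fit with day 12 against both other days as 1 factor called 0. Without day 11 the test called 3, namely Fdft1, Hsd17b7 and Sc5d. The count over 2-fold was 2 without the day 13 GFP- array, 11 with each array centred on its median and 1 after quantile normalization, which also turned 5 genes below 0 (Mvk, Pmvk, Mvd, Srebf1 and Acly). The median over the 30 genes was 0.65, 0.90 and 0.48 under these 3 alternatives.

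Day 12 was the highest of the 3 days in both fractions for 26 of the 30 genes, against 23.7% of all genes and 38.3% of genes in the signal range of the 30. That share was 49.8% of genes with a mean signal of 7 to 8 and 53.0% with 8 to 9. The 4 exceptions were Mvk, Pmvk, Tm7sf2 and Srebf1. In the ranking of all genes by the day 12 difference, 16 of the 30 lay above the 95th percentile and 6 above the 99th, and the lowest, Pmvk, lay at percentile 55.2.

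Brighter genes were higher on day 12 in general. The median day 12 difference was -0.11 for genes with a mean signal of 5 to 6, 0.28 for 6 to 7, 0.40 for 7 to 8, 0.42 for 8 to 9 and 0.39 for 9 to 10. Over the 11606 genes within the signal range of the 30, the median was 0.23 and 8342 genes lay above 0, and 178 exceeded 2-fold. The part of signal level, and of the wider spread of the day 12 arrays, in the day 12 difference was not tested.

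**Figure D3:**
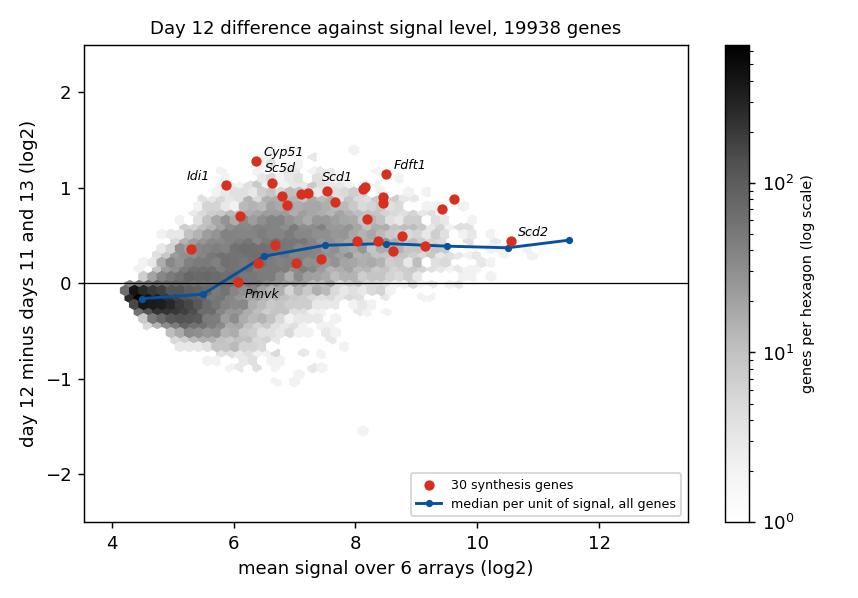
Day 12 minus days 11 and 13 (log2, vertical axis) against the mean signal over 6 arrays (log2, horizontal axis). Grey hexagons count all genes on a log scale, the blue line joins the median of all genes per unit of signal, and red points are the 30 synthesis genes. Most red points lie above the blue line, with Cyp51 (1.28) at the top and Pmvk (0.02) at the bottom.

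The mevalonate branch, from acetyl-CoA to farnesyl diphosphate, was uneven. Its 6 measured genes had a median day 12 difference of 0.47. Idi1, the isomerase of isopentenyl diphosphate, had 5.42, 6.39 and 5.68 in GFP+ cells and 5.69, 6.74 and 5.37 in GFP- cells on day 11, day 12 and day 13. Both day 12 values exceeded the 4 others, and the difference was 1.03 (SE 0.191, adjusted p = 0.366 by limma), or 2.04-fold. Hmgcs1, the HMG-CoA synthase whose promoter holds the sterol motif, differed by 0.84, and Fdps, farnesyl diphosphate synthase, by 0.68. The 3 enzymes between mevalonate and isopentenyl diphosphate differed least, with 0.25 for Mvd, the decarboxylase, 0.21 for Mvk, mevalonate kinase, and 0.02 for Pmvk, phosphomevalonate kinase. Only 3 of the 6 genes had an unadjusted p under 0.05.

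The branch from squalene to cholesterol had the highest median of the 4 roles, 0.92 over 11 genes, of which 9 had an unadjusted p under 0.05. In Cyp51, whose values are given above, the day 12 mean was 7.23 and the mean of the other days 5.95, a 2.43-fold difference (1.28, SE 0.348, adjusted p = 0.366 by limma). In Fdft1 the day 12 mean was 9.27 and that of the other days 8.12, a difference of 1.15 (SE 0.326). Sc5d, the sterol desaturase late in the pathway, had 6.56, 7.30 and 6.21 in GFP+ cells and 6.36, 7.36 and 5.99 in GFP- cells. Its fractions lay within 0.22 of each other on every day, and its difference of 1.06 (SE 0.151) had the lowest unadjusted p of the group, 0.000498. Lss, lanosterol synthase, had 7.76, 8.70 and 8.02 in GFP+ cells and 8.13, 8.87 and 7.27 in GFP- cells, a difference of 0.99 (SE 0.256). Sqle differed by 0.97 (SE 0.279). The demethylating enzymes Hsd17b7, Nsdhl and Msmo1 followed with 0.92, 0.90 and 0.86, and Dhcr7, the reductase of the last step of one route, with 0.82. Tm7sf2, a sterol reductase, and Ebp, a sterol isomerase, had 0.40 and 0.36 and did not reach an unadjusted p of 0.05.

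The 5 regulators and transporters had a median of 0.44. Insig1, which retains SCAP in the endoplasmic reticulum and is itself an SREBP target, had 6.93, 7.61 and 7.16 in GFP+ cells and 7.37, 8.11 and 6.18 in GFP- cells. Its day 12 difference was 0.95 (SE 0.332), and the day 13 GFP- value was well below the other 5, without which the difference was 0.59. Stard4, a sterol transfer protein, differed by 0.70. Scap (0.44), Srebf2 (0.39, or 0.23 without that array), which encodes the SREBP best known for sterol genes, and Srebf1 (0.21, or 0.10 without it), which encodes those best known for fatty acid genes, had an unadjusted p above 0.05. RNA levels do not measure the cut, active form of the SREBPs.

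The 8 fatty acid genes had a median of 0.64, and all 8 were highest on day 12 in both fractions. Scd1, low in GFP+ cells, was also among the most different by day, with a day 12 mean of 8.84 and a mean of 7.82 on the other days (1.01, SE 0.154, 2.02-fold). Acaca differed by 0.93 and Fads2 and Fads1 by 0.89 and 0.78. Fasn, the fatty acid synthase, differed by 0.50, Elovl6, which elongates palmitate, by 0.45, Scd2 by 0.44 and Acly, which supplies cytosolic acetyl-CoA from citrate, by 0.34 (0.14 without the day 13 GFP- array). Of the 8, Acly alone had an unadjusted p above 0.05.

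Inside each fraction, 1 array of day 12 stands against 2 arrays of the other days. In GFP+ cells the median over the 30 genes was 0.40, against -0.03 over all genes and 0.05 over genes in the same signal range, and 0 of the 30 exceeded 2-fold (0.622% of all genes). In GFP- cells the median was 1.02, against -0.06 over all genes and 0.40 over genes in the same signal range, and 16 of the 30 exceeded 2-fold (7.15% of all genes and 12.2% of genes in the same signal range). With a mean signal of 7 to 8 the GFP- median was 0.66 and 525 of 2333 genes exceeded 2-fold. With 8 to 9 these were 0.70 and 196 of 902. Without the day 13 GFP- array, 8 of the 30 exceeded 2-fold in GFP- cells (2.96% of all genes, 5.04% in the signal range). limma called 0 of the 30 in either fraction, and 6 had an unadjusted p under 0.05 in GFP+ cells (2.29% of all genes) and 23 in GFP- cells (19.1% of all genes). Without the day 13 GFP- array it called 14 in GFP- cells (8.51% of all genes), in a fit whose spread comes from the GFP+ arrays of day 11 and day 13 alone. The largest were Sc5d (0.92), Scd1 (0.86) and Hmgcs1 (0.85) in GFP+ cells, and Cyp51 (2.05), Fdft1 (1.70) and Hsd17b7 (1.44) in GFP- cells. Without the day 13 GFP- array these 3 had 2.03, 1.11 and 0.89 in GFP- cells, and Scd1 (1.40) and Fdps (1.12) then stood above Fdft1 and Hsd17b7.

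**Figure D4:**
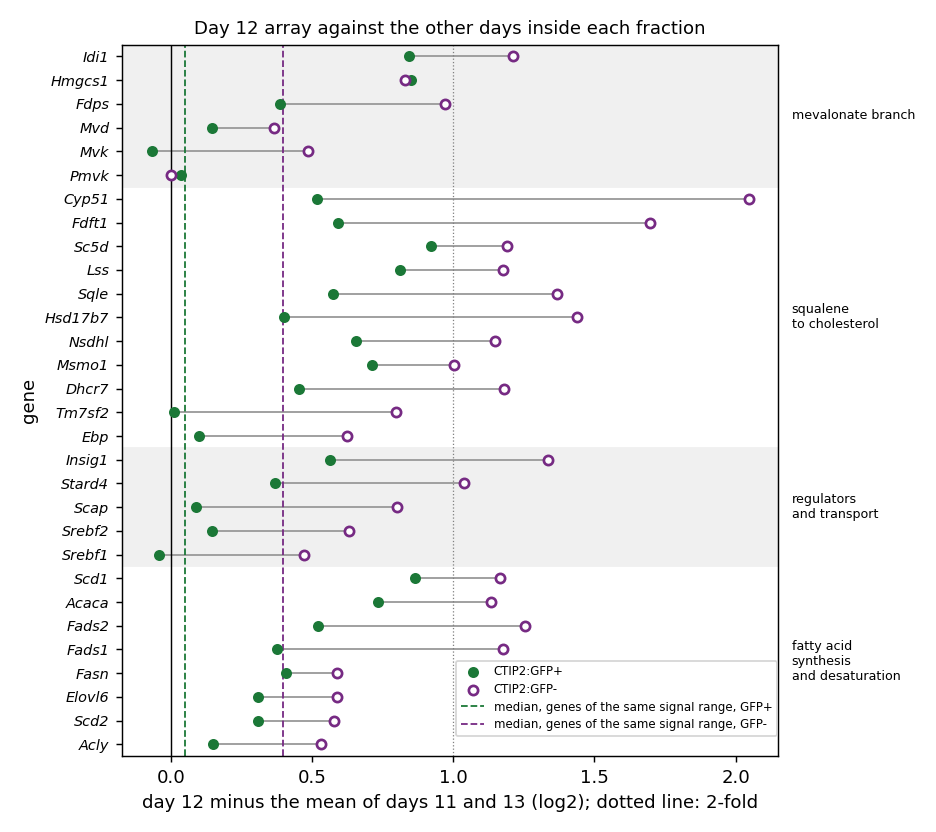
Day 12 minus the mean of days 11 and 13 (log2, horizontal axis) of each synthesis gene in GFP+ cells (filled green) and GFP- cells (open purple), joined by a line. Dashed lines are the medians of genes in the same signal range (0.05 in GFP+ and 0.40 in GFP- cells). The GFP- point lies to the right for 28 of the 30 genes, farthest for Cyp51.

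The day 12 difference was larger in GFP- cells for 28 of the 30 genes, against 48.7% of all genes and 72.6% of genes in the same signal range. It was larger in GFP+ cells for 2 of the 30, 218 of 2333 genes with a mean signal of 7 to 8 and 57 of 902 with 8 to 9. The count of 28 is therefore near the share among genes as bright as the median of the 30, 7.60. The GFP+ minus GFP- difference of the 2 day 12 contrasts had a median of -0.50. That median was 0.01 over all genes, -0.31 over genes in the signal range, -0.54 at a signal of 7 to 8 and -0.57 at 8 to 9. The difference was under -1 for 3 of the 30, namely Cyp51 (-1.53), Fdft1 (-1.11) and Hsd17b7 (-1.04). So it was for 3.53% of all genes, 6.03% in the signal range, 291 of 2333 genes at 7 to 8 and 105 of 902 at 8 to 9. Without the day 13 GFP- array only Cyp51 was under -1 (-1.51), with Fdft1 at -0.52 and Hsd17b7 at -0.49, and 1.39% of all genes were. limma called 0 of the 30 (3 at an unadjusted p under 0.05, 4.47% of all genes), with a smallest adjusted p of 0.864. Hmgcs1, by contrast, differed by 0.85 and 0.83 in GFP+ and GFP- cells.

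The day 13 GFP- array held the lowest of the 6 values for 20 of the 30 genes, as it did for 31.2% of all genes and 50.6% of genes in the same signal range. The day 12 GFP- array held the highest for 25, against 24.9% of all genes and 39.4% in the signal range. Against day 11 alone, day 12 was higher for 27 of 30 genes in GFP+ cells, with a median of 0.40 (all genes -0.04, genes in the same signal range 0.04), and for 30 of 30 in GFP- cells, with a median of 0.75 (all genes -0.02, same signal range 0.25). That difference was larger in GFP- cells for 26 of the 30 genes, against 52.9% of all genes. Its share among genes in the same signal range was not counted, so the 26 are not set against genes of like signal. For the full day 12 contrast, the share larger in GFP- cells was 48.7% of all genes and 72.6% in the signal range. Against day 13 alone, day 12 was higher for 27 genes in GFP+ cells, with a median of 0.49 (all genes -0.03, same signal range 0.06), and for 29 in GFP- cells, with a median of 1.02 (all genes -0.06, same signal range 0.51). Day 13 and day 11 differed little in GFP+ cells, with a median of 0.02 and 18 of 30 genes above 0 (all genes -0.01, same signal range -0.02). In GFP- cells day 13 was lower, with a median of -0.31 and 6 of 30 genes above 0. Genes in the same signal range were lower there too, with a median of -0.20 and 4113 of 11606 above 0 (all genes 0.02). The GFP+ values do not involve the array that stood apart.

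Genes next to the 30 in the pathway were read from lists chosen with them. Of 16 other synthesis enzymes measured, 12 were above 0 on day 12, 8 at an unadjusted p under 0.05 and 1 over 2-fold, with a median of 0.58, and limma called 0 between the fractions. The 4 largest were Hacd3 (1.12) and Tecr (0.82), which act in very long-chain fatty acid elongation, Elovl5 (0.87), an elongase of polyunsaturated fatty acids, and Hsd17b12 (0.79), a reductase of elongation. Of 9 genes of SREBP processing and sterol uptake, 8 were above 0, with a median of 0.50. They were led by Tmem97 (1.21), a sterol-regulated membrane protein, Npc1 (0.83), which exports cholesterol from lysosomes, and Insig2 (0.78), a relative of Insig1. Of 8 genes listed for LXR, efflux and storage, 6 were measured, and these had a median of -0.04 with 3 above 0. Apoe, the lipid carrier, had the largest difference there, -0.59, and its value on the day 13 GFP- array, 8.83, was the highest of its 6. limma called 0 genes of these 3 lists on day 12, where 8, 2 and 0 were higher at an unadjusted p under 0.05.

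Other gene groups were higher on day 12 too. Of 16 glycolysis and hypoxia genes, 14 were above 0, 11 had an unadjusted p under 0.05 and 6 exceeded 2-fold, with a median of 0.93, higher than that of the synthesis genes. On day 11, day 12 and day 13 their median signal was 7.27, 8.33 and 7.61 in GFP+ cells and 8.34, 8.99 and 6.96 in GFP- cells. Bnip3, a mitophagy receptor, differed by 1.54 and Slc2a1, the glucose transporter, by 1.34, and Slc2a1 was also lower in GFP+ than in GFP- cells (-1.56, adjusted p = 0.028, limma). The medians on day 12 were 0.25 for 12 genes of the integrated stress response, -0.17 for 8 immediate early genes, 0.24 for the radial glia markers, 0.42 for the neuron markers and 0.50 for 5 cycling-cell markers, and lay between -0.32 and 0.05 for 7 further cell type lists, from telencephalic progenitors to pluripotent cells and macrophages. The part of these groups in the day 12 difference of the synthesis genes was not tested.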

How the data were processed

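Sorted cells of 6 samples were measured, 1 array each. The deposited log2 values are probe set signals that the authors obtained by RMA16 in the GeneSpring program. How the arrays were normalized to each other, any filter and the annotation release are not given in the sources read, and array medians ran from 5.32 to 5.52. Of 28853 probe sets, 21789 had 1 symbol in the platform annotation and gave 19938 genes, with no filter on dim signals.

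Differences were tested by limma 3.58.1 (lmFit and eBayes, R 4.3.3). The additive fit of fraction and day gave GFP+ minus GFP- and day 12 minus the mean of day 11 and day 13. A fit of 4 means, by fraction and day 12 or other day, gave the contrasts inside a fraction, and there the lone day 12 array is assumed to vary like the other days. Each fit leaves 2 residual degrees of freedom. Benjamini-Hochberg adjustment covered all 19938 genes, a call needed an adjusted p under 0.05, and the fit was tested on simulated data. The labels name the day of each sort, which pairs the fractions. As a check, each array was expressed as its deviation from the mean of its fraction, and the 2 arrays of day 11, day 12 and day 13 had r = 0.112, 0.558 and 0.368 over genes. Alternatives were the fit with no replicate block for the day, each day left out, the day 13 GFP- array left out, centring on medians, quantile normalization, averaged probe sets, a filter on dim genes, a trended and robust eBayes, day 12 as 1 factor and the methods' t-test.

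The members and lists were chosen with earlier results of these data known. Array by array values are given in the text for the 6 members with the largest difference between fractions and the 8 with the largest day 12 difference, and up to 4 genes are named from each other list. Bcl11b was added as the reporter gene. The number of arrays limits the precision.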

Additional observations from a re-analysis of the deposited data

Results flagged for a closer look

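For 2 synthesis genes the day 12 array lay below both other days in GFP+ cells and above both in GFP- cells, and these were singled out for that reason. In Srebf1 the day 12 difference was -0.04 in GFP+ cells and 0.47 in GFP- cells, so that the fractions differed by -0.51 in it. In Mvk it was -0.07 in GFP+ cells and 0.49 in GFP- cells, a difference of -0.55. By limma neither difference between the fractions passed (adjusted p = 0.864 for both genes).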

How the results depend on the processing

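The count of synthesis genes lower in GFP+ cells, 1 (Scd1), became 0 with no replicate block for the day, without the day 13 GFP- array, with median centring and by the methods' t-test after Benjamini-Hochberg (1 unadjusted), and was 0 to 1 when each day was left out. Over these and the other alternatives the limma or t-test adjusted p of Scd1 ran from 0.00121 to 0.537, and its difference stayed negative, from -1.77 to -1.44. Genes called higher numbered 0 to 2 and genes over 2-fold higher 0 to 2 when each day was left out, and 1 was over 2-fold higher with median centring. The median over the 30 genes was negative with quantile normalization (-0.17) and without day 13 (-0.15). For day 12, the trended and robust test called 2 genes and leaving out a day called 0 to 3. The count over 2-fold was 3 to 12 when a day was left out (12 without day 11, 3 without day 13), 2 without the day 13 GFP- array, 11 with median centring and 1 with quantile normalization. The median day 12 difference in GFP+ cells was 0.40 to 0.49 when a day was left out and 0.28 with quantile normalization, and in GFP- cells 0.75 to 1.02, 0.75 without the day 13 GFP- array and 0.59 with quantile normalization. Without that array 14 genes were called in GFP- cells, in a fit whose spread comes from GFP+ cells alone. The day 12 difference turned negative with quantile normalization for Mvk (-0.13), Pmvk (-0.13), Mvd (-0.13), Srebf1 (-0.012) and Acly (-0.015), and for Pmvk it was -0.13 to 0.16 when a day was left out. The cause of these shifts was not tested. Of all values recomputed, 417 kept their direction and side of the threshold or stayed within the spread. Another 22 counts or medians moved, 6 differences of single genes turned their sign, 7 gained a call and 5 lost one. A gene far from the threshold under every setting also counts as kept. Median centring moved the all-gene median of the day 12 difference in GFP- cells to 0.10, against -0.06 as deposited.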
